A study of Mus musculus with 12 samples.

Results

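EML1 cells carrying the empty lentiviral vector pWPI were compared after 5 days with IL7 and FLT3L (2 arrays) and untreated (2 arrays). These 4 arrays were chosen by sample title from the 12 arrays of a series on the leukaemia fusion TEL-AML1, whose other 8 arrays hold empty-vector cells at day 7 and TEL-AML1 cells untreated, at day 5 and at day 7. EML1 is a blood progenitor line that arose when marrow cells of male BDF1 mice received the retroviral vector LRARalpha403SN, so day 5 and untreated cells alike carried that vector as well as pWPI. For B-cell differentiation, 50000 EML1 cells were plated on confluent OP9 stromal cells in α-MEM with 20% fetal bovine serum, β-mercaptoethanol, 10 ng/ml of IL7 and 80 ng/ml of FLT3L. The maintenance medium was IMDM with 20% horse serum and 15% BHK/MKL-conditioned medium. The titles name only the cytokines. The labels do not state which culture each array came from, nor that untreated cells were kept without stroma. If untreated cells came from maintenance and day 5 cells from differentiation cultures, they differed in cytokines, stroma, medium, serum and time. The effects of these differences cannot be told apart. Separate cultures for the replicates are not stated in the labels, so the p-values measure only the spread between arrays, which may be technical.

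IL7 and FLT3L are ligands of receptors that support early lymphoid progenitors, acting through JAK-STAT signalling and through a receptor tyrosine kinase. OP9 is a mouse bone marrow stromal line that makes extracellular matrix, adipocyte-lineage genes and the chemokine Cxcl12, and its RNA enters a lysate if stromal cells are harvested with the progenitors. Interferon signalling switches on a shared set of antiviral and antigen-presentation genes. In bulk RNA, a change in the number of cells of a type and a change in RNA per cell cannot be told apart.

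Array medians of the 12 arrays lay between 68.1 and 72.9 intensity units. Across the tested genes the day 5 replicates correlated at 0.986 and the untreated replicates at 0.997, and the median gap between replicates was 0.134 at day 5 and 0.0688 in untreated cells on the log2 scale. Fold changes below are differences of log2(intensity + 16) with their standard error, and adjusted p-values come from limma, by the Benjamini-Hochberg method across 12337 genes. A gene is called where its adjusted p is under 0.05. The summed intensity of 23 progenitor genes was 17340.5 and 18531.9 at day 5, against 17243.1 and 17616 in untreated cells. The macrophage marker Adgre1 was dimmer than the filter intensity described next or close to it, at 55.5 and 65.9 at day 5, against 61.0 and 54.9 in untreated cells.

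At day 5, 1926 of 12337 tested genes were called (15.6%), 1043 higher (8.45%) and 883 lower (7.16%). All of them had non-overlapping arrays, which a call with 2 arrays a group nearly requires, so this adds no support. The median change was 0.60 among the higher and -0.41 among the lower genes. Changes over 2-fold were 229 higher and 22 lower. With each array centred on its median, the split was 770 higher and 1056 lower. Of the 1043 higher genes, 256 (24.5%) had an untreated mean under the filter intensity of 60.1, and so passed the filter through arrays of other groups. Of the genes named in this text, 103 were called and 42 of these held without each of the 4 arrays. Without day 5 replicate 1 or 2, 32 or 28 of them lost their call, and without untreated replicate 1 or 2, 55 or 59. The count of calls over all genes was 1488 without day 5 replicate 1, 950 without day 5 replicate 2, 368 without untreated replicate 1 and 202 without untreated replicate 2.

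The largest rise of all was in a gene of stromal matrix. Fn1, which encodes fibronectin, stood at 2249 and 1576 at day 5, against 58.8 and 56.4 in untreated cells (4.69 ± 0.82, adjusted p = 0.00758). Bgn, the matrix proteoglycan biglycan, stood at 1272 and 961 against 64.3 and 58.2 in untreated cells (3.86 ± 0.65, adjusted p = 0.00647). Col1a1, a chain of type I collagen, stood at 777 and 553 against 91.4 and 88.0 in untreated cells (2.67 ± 0.56, adjusted p = 0.0137). In all 3 genes both day 5 arrays lay far above both untreated arrays, and day 5 replicate 1 was higher than replicate 2. Of 24 listed matrix genes 23 were on the array with a named probe set, and 20 were bright enough to test. Of these, 18 were called higher and 0 lower, against 8.45% of all tested genes called higher, with a median of 1.73 beside -0.0078 over all tested genes. A matrix gene dim in untreated cells passed the filter only through treated arrays and had to differ, so this count is a description. The 2 that were not called were Loxl2, a collagen cross-linking enzyme, and Pdgfrb, a growth factor receptor of stromal cells, which stood at 931 and 946 at day 5 and at 917 and 891 in untreated cells. The summed intensity of the 23 genes was 10736 and 7848.55 at day 5, against 2359.5 and 2272.51 in untreated cells. Leaving out day 5 replicate 1 left 5 matrix genes called, leaving out day 5 replicate 2 left 16, and leaving out untreated replicate 1 or 2 left 1 or 0.

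Other stromal genes changed with them. Cxcl12, the chemokine that retains progenitors in marrow, stood at 835 and 577 at day 5, against 58.4 and 57.9 in untreated cells (3.26 ± 0.67, adjusted p = 0.0135). Kitl, which encodes the ligand of the receptor Kit, changed by 0.73 ± 0.21 (adjusted p = 0.0426). Of 13 tested stromal cytokine and receptor genes 9 were called higher and of 12 contractile genes 5, beside 8.45% of all tested genes. The contractile genes called included Acta2, smooth muscle actin (1.53 ± 0.42, adjusted p = 0.0351), and Cald1, an actin-binding protein (1.59 ± 0.35, adjusted p = 0.0162). Of 7 tested adipocyte genes 5 were called higher, beside the same share. Members dim in untreated cells passed the filter only through treated arrays, so these counts are descriptions. Pparg, the nuclear receptor that drives adipocyte formation, stood at 270 and 168 at day 5, against 67.4 and 56.0 in untreated cells (1.56 ± 0.36, adjusted p = 0.0183). Lpl, the lipase that releases fatty acids from lipoproteins, changed by 1.72 ± 0.44 (adjusted p = 0.0279). With single arrays left out, the count was 0 to 8 for the stromal cytokine list, 0 to 3 for the contractile list and 0 to 2 for the adipocyte list. Without either untreated array the counts were at most 1, and without untreated replicate 2 the adjusted p of Fn1, Bgn, Col1a1, Cxcl12 and Pparg reached 0.0707, 0.0631, 0.103, 0.0986 and 0.13.

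**Figure D1:**
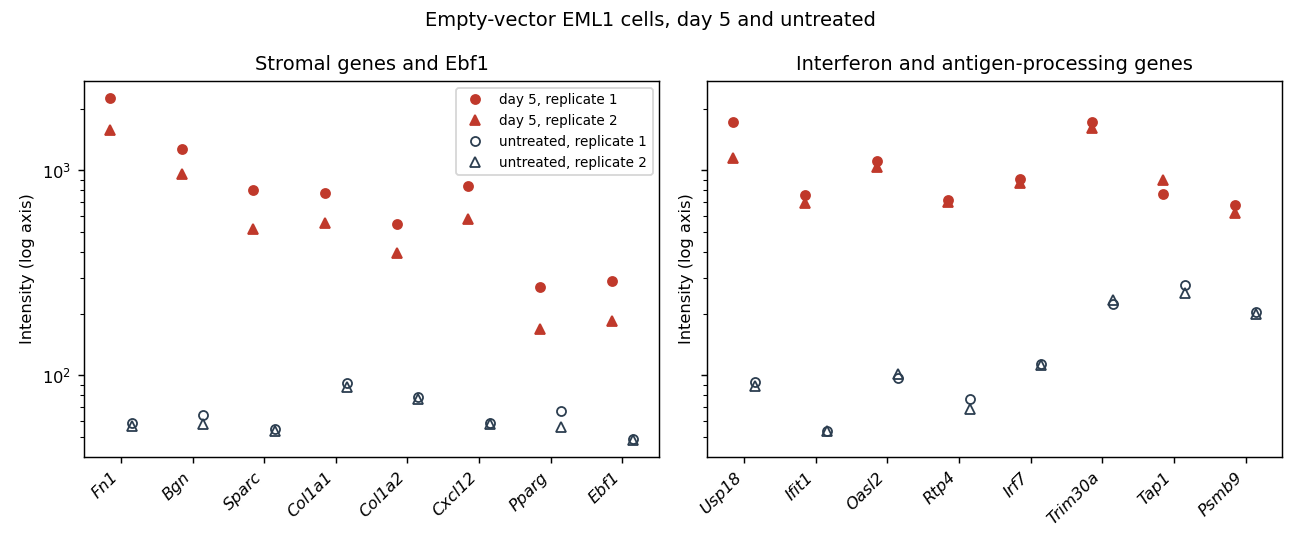
Intensity of 8 genes that tracked the stroma, Ebf1 among them (left), and 8 interferon or antigen-processing genes (right) in each array, on a log axis. Filled red symbols are the 2 day 5 arrays and open symbols the 2 untreated arrays, with a circle for replicate 1 and a triangle for replicate 2. The day 5 replicates of the stromal genes lie apart in one direction, as do those of Usp18, while those of Irf7 (904 and 872) and Rtp4 (717 and 699) nearly coincide. The left panel includes genes of the stroma index described below, such as Fn1, Bgn and Col1a1, which track it by construction.

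The treated arrays held unequal amounts of stromal RNA, and this was used to ask which rises followed it. A stroma index was taken as the mean scaled intensity of 9 matrix genes, including Fn1, Bgn and Col1a1. It is 0 at the mean of the untreated arrays of both vectors and 1 at the mean of the 8 treated arrays. It was 2.49 and 1.58 in the 2 day 5 arrays, against 0.00833 and -0.00534 in the untreated arrays. Elsewhere it was 0.175 and 1.10 in empty-vector day 7 arrays, 1.77 and 0.348 in TEL-AML1 day 5 arrays and 0.0297 and 0.508 in TEL-AML1 day 7 arrays. For each gene, the differences between replicates in the 4 treated groups were regressed on those of the index, and the slope gave the share of its day 5 increment that followed the index. A share of 0.6 or more is called tracking and a share of 0.3 or less not tracking. A share describes how values vary together over 4 pairs of arrays. It does not show which cells made the RNA, which was not tested.

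Of the genes called higher with an increment over 100 units, 426 lay outside the index. Among them 117 (27.5%) tracked the stroma, 38 (8.92%) were between the limits and 271 (63.6%) did not track it. Among the 180 that changed over 2-fold, 105 tracked and 66 did not. The classes differed by the untreated level: of 58 genes with an untreated mean under 60.1, 53 tracked and 3 did not, while of 368 genes above it, 64 tracked and 268 did not. Contractile genes, which did not enter the index, had 3 of 4 tracking and 1 between the limits. Of 495 genes called lower with a decrement over 100 units, 2 tracked and 473 did not. With the index added to the model as a covariate, 160 genes were called higher and 188 lower, of which 115 and 135 were also called without it. It kept 1 of the 117 tracking genes and 95 of the 271 that did not track. The covariate is the index that defined these classes, so the loss of tracking genes was nearly fixed and gives the classes no separate support.

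**Figure D2:**
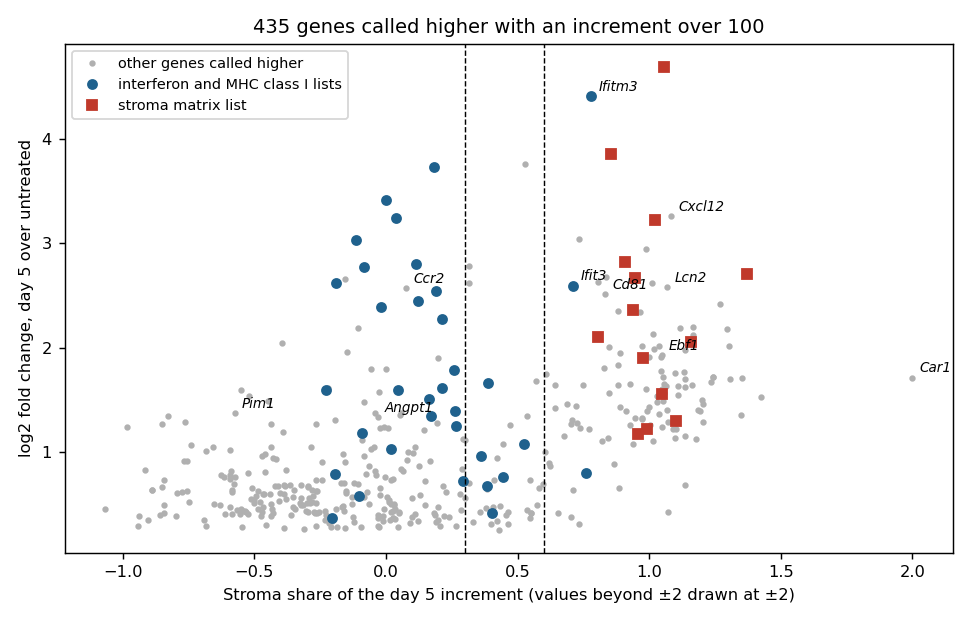
Log2 fold change of day 5 over untreated (vertical axis) against the stroma share of the increment (horizontal axis) for the 435 genes called higher with an increment over 100 units, including the 9 index genes. Dashed lines mark shares of 0.3 and 0.6. Stroma matrix genes (red squares) lie right of 0.6, the index genes among them by construction, and 25 of the 34 genes of the interferon and MHC lists (blue) lie at or left of 0.3.

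Several genes known from blood cells tracked the stroma. Ebf1, a transcription factor of early B cells that adipocyte-lineage stromal cells also use, stood at 289 and 183 at day 5, against 49.2 and 48.5 in untreated cells (1.93 ± 0.43, adjusted p = 0.0175). Both day 5 arrays were above both untreated arrays, and its stroma share was 1.05 ± 0.078. Lcn2, an iron-carrier-binding protein of granulocytes and of stressed stroma, stood at 485 and 304 against 51.3 and 50.9 in untreated cells (2.58 ± 0.61, adjusted p = 0.0208), with a share of 1.07 ± 0.27. Cd81, a tetraspanin of many cell types, stood at 658 and 430 against 83.1 and 77.4 in untreated cells (2.51 ± 0.37, adjusted p = 0.00339). Its share was 0.832 ± 0.16. In untreated TEL-AML1 cells, where the stroma index was 0.00612 and -0.00911, Cd81 stood at 661 and 637. A high level of Cd81 was thus also measured without a raised index. The Cd81 call held without each single array, while the adjusted p of Ebf1 and Lcn2 reached 0.119 and 0.127 without untreated replicate 2.

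**Figure D3:**
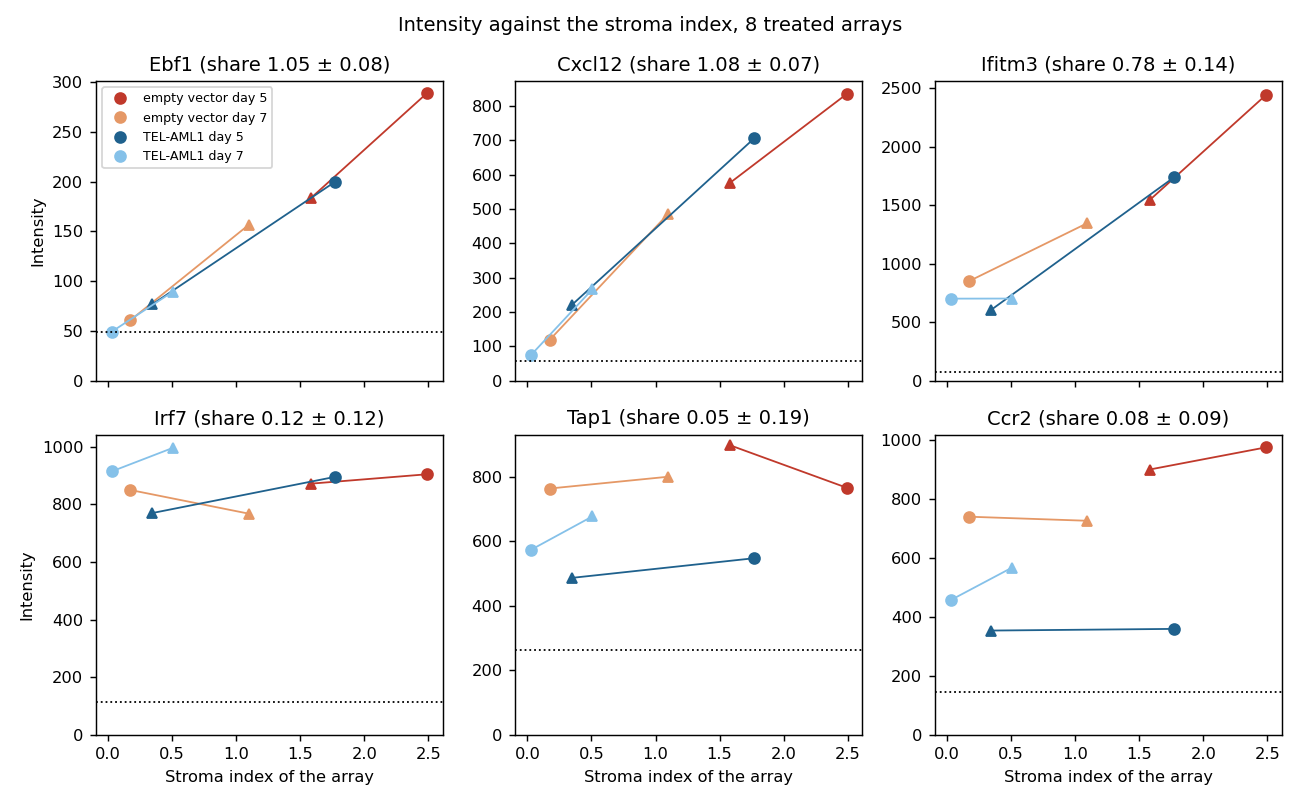
Intensity of 6 genes (vertical axes) against the stroma index of the array (horizontal axis) in the 8 treated arrays, with a line joining the 2 replicates of each group. Circles are replicate 1, triangles replicate 2, and the dotted line is the untreated empty-vector mean. Ebf1 and Cxcl12 increase with the index. Irf7, Tap1 and Ccr2 stay well above the untreated mean in empty-vector day 7 replicate 1, where the index is 0.175, as does Ifitm3 (851), which increases with the index in 3 pairs and is level in the TEL-AML1 day 7 pair (701 and 702).

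Interferon-stimulated genes formed the other large group of rises. Of 36 listed effectors 33 had a probe set and 31 were tested, and 27 were called higher and 0 lower (8.45% of all tested genes were called higher), with a median of 1.14. An effector dim in untreated cells, as Ifit1 was, passed the filter only through treated arrays, so this count is a description. Usp18, a protease that removes ISG15 and damps interferon signalling, stood at 1722 and 1148 at day 5, against 92.4 and 89.2 in untreated cells (3.74 ± 0.21, adjusted p = 6.16e-06). Ifit1, which binds viral RNA caps, stood at 759 and 695 against 53.6 and 53.3 in untreated cells (3.42 ± 0.20, adjusted p = 9.03e-06). The day 5 arrays of both genes were all far above the untreated arrays. Rtp4, a receptor transporter induced by interferon, stood at 717 and 699 against 76.6 and 68.9 in untreated cells (3.03 ± 0.14, adjusted p = 3.04e-06). Trim30a, a ubiquitin ligase of innate immunity, stood at 1717 and 1612 against 224 and 234 in untreated cells (2.78 ± 0.10, adjusted p = 4.69e-07). Oasl2 and Oas3, of the oligoadenylate synthetase family, changed by 3.24 ± 0.17 and 2.45 ± 0.15, and Xaf1, Isg20 and Bst2, which holds virions at the membrane, by 2.39 ± 0.13, 1.79 ± 0.096 and 1.25 ± 0.10. With single arrays left out the count of 27 was 24 to 26, and with the stroma covariate it was 16. The 2 tracking effectors were Ifitm3 and Ifit3. Ifitm3, which blocks virus entry, stood at 2441 and 1542 against 74.9 and 76.8 in untreated cells (4.41 ± 0.40, adjusted p = 0.000165) with a share of 0.779 ± 0.14, and Ifit3 had a share of 0.712 ± 0.17. Its neighbour Ifitm1 was not called (-0.29 ± 0.11, adjusted p = 0.115).

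The interferon rises were measured beside stroma and macrophage markers. Of the 34 called genes of 4 interferon and MHC lists with an increment over 100, 25 did not track the stroma, 6 were between the limits and 3 tracked. Their increment in day 5 replicate 1 was 1.10 times that in replicate 2 at the median (range 0.548 to 2.23), against 1.51 times for the 9 index genes (range 1.35 to 2.41), so the ranges overlapped. In empty-vector day 7 replicate 1, where Fn1 was 276, Usp18 stood at 1658, Ifit1 at 821 and Irf7 at 850. Of 11 tested macrophage genes 0 were called higher and 1 lower, beside 8.45% and 7.16% over all tested genes. The lower gene was Cd68 (-0.45 ± 0.077, adjusted p = 0.00668, and 0.0745 without untreated replicate 2). The summed intensity of 16 macrophage genes was 1558.58 and 1829.15 at day 5, against 1738.7 and 1662.51 in untreated cells. In TEL-AML1 cells Ifit1 stood at 682 and 490 at day 5 and at 50.1 and 50.8 untreated.

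Within the signalling arm, 4 of 20 tested genes were called higher and 0 lower, beside 8.45% and 7.16% over all tested genes. Irf7, the factor that amplifies the interferon response, stood at 904 and 872 at day 5, against 114 and 113 in untreated cells (2.80 ± 0.097, adjusted p = 4.66e-07). Its day 5 arrays lay close together and far above the untreated arrays, and its stroma share was 0.115 ± 0.12. Irf9, the DNA-binding subunit of the interferon-activated complex, changed by 1.03 ± 0.087 (adjusted p = 0.000107) and Stat2, its partner, by 0.80 ± 0.16 (adjusted p = 0.0112, share 0.759 ± 0.34). Usp18 was the other call. The interferon receptor genes Ifnar1 (0.0068 ± 0.082) and Ifnar2 (-0.032 ± 0.079) were not called. Of 9 interferon-induced GTPase genes with a probe set, 4 were bright enough to test. All 4 were called higher, beside 8.45% of all tested genes: Irgm1 (1.34 ± 0.15, adjusted p = 0.000701), Gbp3 (0.97 ± 0.23), Gbp7 (0.60 ± 0.16) and Iigp1 (0.49 ± 0.14). Gbp3, Gbp7 and Iigp1 lay under the filter intensity in untreated cells and passed only through treated arrays, so this count is a description. Of the 4 GTPase genes only Irgm1 held without each array, and Stat2 lost its call without untreated replicate 1 (0.057) or 2 (0.103).

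The interferon-stimulated response element is the DNA word through which interferon switches on many of its target genes. Its core was searched as GAAA, any 2 bases and GAAA again, on both strands of RefSeq promoter windows from 250 bases before to 50 after each gene start (GRCm38.p6), and overlaps with other motifs were not removed. It was found for 1079 of 27025 genes with a window (3.99%), for 339 of 9874 tested genes (3.43%), for 11 of the 19 called effectors that had a window (57.9%), for 3 of 9 such called MHC genes (33.3%) and for 0 of 12 such matrix genes. The windows below show it in 4 called effectors, with the match in capitals. They are the 4 largest rises among called effectors whose window held the word, so its presence was fixed by the choice. Ifitm3 and Ifit3 tracked the stroma, while Ifit1 and Trim30a did not. Oasl2, Xaf1 and Isg20 had a window without the word, and Usp18 and Rtp4 had no window.
Ifitm3 (chr7:141010708-141010767, minus strand): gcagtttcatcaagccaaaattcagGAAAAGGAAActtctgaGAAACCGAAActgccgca
Ifit3 (chr19:34583348-34583407, plus strand): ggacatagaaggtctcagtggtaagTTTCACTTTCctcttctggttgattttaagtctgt
Ifit1 (chr19:34640760-34640819, plus strand): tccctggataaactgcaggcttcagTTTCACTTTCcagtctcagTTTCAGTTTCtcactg
Trim30a (chr7:104465195-104465254, minus strand): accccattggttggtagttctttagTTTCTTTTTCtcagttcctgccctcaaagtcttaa

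Genes of MHC class I presentation rose with them. Of 16 tested genes 12 were called higher and 0 lower, beside 8.45% and 7.16% over all tested genes, with a median of 0.78. Tap1, a subunit of the pump that carries peptides into the endoplasmic reticulum, stood at 766 and 898 at day 5, against 275 and 254 in untreated cells (1.59 ± 0.11, adjusted p = 1.82e-05). Its partner Tap2 stood at 534 and 533 against 176 and 178 in untreated cells (1.51 ± 0.098, adjusted p = 1.61e-05). Psmb9, an immunoproteasome subunit, stood at 678 and 616 against 203 and 198 in untreated cells (1.61 ± 0.099, adjusted p = 1.19e-05). In all 3 the day 5 arrays were about level with each other and above both untreated arrays, with shares of 0.0461, 0.162 and 0.213. H2-K1, a class I heavy chain, changed by 1.39 ± 0.21 (adjusted p = 0.00339). Class I genes share sequence, so probes of 1 can detect another. B2m, the light chain of class I, stood at 4579 and 4777 against 3580 and 3662 in untreated cells (0.37 ± 0.067, adjusted p = 0.00831, reaching 0.0647 and 0.0729 without untreated replicate 1 and 2). Psme2, a proteasome activator, was not called (-0.082 ± 0.16). The count of 12 was 12 and 11 without day 5 replicate 1 and 2, 9 and 8 without untreated replicate 1 and 2, and 5 with the stroma covariate.

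Of 30 listed B lineage genes, 28 could be named on the array and 16 of them tested. Of these, 2 were called higher and 0 lower, beside 8.45% and 7.16% over all tested genes, with a median of -0.022. The 2 calls were Ebf1, described above, and Dntt, which encodes the nucleotide-adding enzyme of antigen receptor joining. Dntt stood at 161 and 145 at day 5, against 74.3 and 73.5 in untreated cells (0.91 ± 0.21, adjusted p = 0.0196), so the groups did not overlap. Its call ended without any single array, with an adjusted p of up to 0.126, and with the stroma covariate its change was 1.51 (adjusted p = 0.0444). Pre-B receptor chain genes Vpreb1 (63.2 and 92.0 at day 5, against 70.7 and 72.3 untreated) and Igll1, the B-cell factor Pax5 and the receptor chain Cd79b were dim and not called. Of 14 tested lymphoid priming genes 1 was called higher and 0 lower, beside the same shares. It was Gata3, a factor of T and innate lymphoid cells (0.46 ± 0.14, adjusted p = 0.0459, reaching 0.294 without day 5 replicate 2).

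The receptors of both added cytokines were dim. Flt3, the FLT3L receptor, stood at 49.6 and 50.0 at day 5 and at 48.1 and 49.9 in untreated cells, under the filter. Il7r, the IL7 receptor chain, stood at 58.0 and 51.7 at day 5 and at 67.9 and 65.3 in untreated cells, and was not called (-0.22 ± 0.32, adjusted p = 0.72). Of 16 tested genes of cytokine receptors and STAT5 feedback, 3 were called higher and 0 lower, beside 8.45% higher over all tested genes. Pim1, a survival kinase induced by STAT5, stood at 440 and 620 at day 5, against 203 and 182 in untreated cells (1.37 ± 0.21, adjusted p = 0.00401, share -0.575 ± 0.59). Bcl2, which blocks apoptosis, changed by 0.44 ± 0.091 (adjusted p = 0.0143), and Socs2, a feedback inhibitor, by 0.83 ± 0.22 (adjusted p = 0.0294). Cish, another STAT5 target, was not called (-0.050 ± 0.071). Without untreated replicate 2 none of the 3 was called, with adjusted p of 0.0517 for Pim1, 0.0599 for Bcl2 and 0.145 for Socs2.

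Of 19 tested progenitor genes 3 were called higher and 3 lower, beside 8.45% higher and 7.16% lower over all tested genes, with a median of 0.096. Kit, the stem cell factor receptor, stood at 2280 and 2733 at day 5 and at 2687 and 2665 in untreated cells (-0.10 ± 0.10, adjusted p = 0.576), so the groups overlapped. Gata2 and Runx1, factors of blood stem and progenitor cells, were not called (0.21 ± 0.12 and 0.27 ± 0.11). Angpt1, a ligand of the Tek receptor, stood at 244 and 249 at day 5, against 82.9 and 94.3 in untreated cells (1.33 ± 0.18, adjusted p = 0.00245). Its arrays were clearly separated, its call held without each array, and its share was -0.0312 ± 0.49. Hlf, a factor of stem cells, changed by 0.63 ± 0.17 (adjusted p = 0.0303) and Spn, the leukocyte sialoglycoprotein, by 0.62 ± 0.14 (adjusted p = 0.0166). The surface markers Cd34 (-0.30 ± 0.086, adjusted p = 0.0396) and Ptprc (-0.33 ± 0.085, adjusted p = 0.0272) and the myeloid and lymphoid factor Spi1 (-0.43 ± 0.088, adjusted p = 0.0137) fell. Without untreated replicate 2 all 5 of these lost their call, with adjusted p between 0.117 and 0.204, and without day 5 replicate 2 Hlf reached 0.213.

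Granule genes of myeloid and mast cells ranged from bright to under the filter intensity. Mpo and Cpa3, named after their values were seen, were bright and not called. Mpo, the granule peroxidase of immature granulocytes, stood at 3306 and 3339 at day 5 and at 3359 and 3390 in untreated cells, and Cpa3, a mast cell protease, at 4350 and 3998 at day 5 and at 4093 and 4408.5 in untreated cells. Of 19 granulocyte genes with a probe set 13 were bright enough to test. Of these 2 were called higher, Lcn2 and Hp, beside 8.45% of all tested genes. Of 21 tested mast, basophil and eosinophil genes 1 was called higher, beside the same share. It was Slc18a2, the monoamine transporter of granules (0.63 ± 0.15, adjusted p = 0.0231). Of 18 tested erythroid genes 4 were called higher and 1 lower, beside 8.45% and 7.16% over all tested genes. Nfe2, a factor of red cells and platelets, changed by 0.73 ± 0.14 (adjusted p = 0.00955), Car2, a carbonic anhydrase, by 0.83 ± 0.24, Gata1, the master factor of the lineage, by 0.64 ± 0.19 and Car1, another carbonic anhydrase, by 1.71 ± 0.49. The day 5 arrays of Car1 differed, at 340 and 194 against 62.1 and 73.2 in untreated cells, and its share of 2.98 ± 3.6 was too imprecise to place. Tfrc, the transferrin receptor, fell by 0.47 (SE 0.11, adjusted p = 0.018). The platelet genes Pf4, a chemokine (0.66 ± 0.16), and F13a1, a clotting factor (0.52 ± 0.12), were 2 of 14 tested megakaryocyte genes called higher, beside 8.45% of all tested genes. Without untreated replicate 2, none of these myeloid, mast, erythroid and platelet genes was called, with adjusted p between 0.0986 and 0.201.

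The clearest rise of a surface receptor was in Ccr2, the receptor for monocyte chemokines. It stood at 975 and 900 at day 5, against 139 and 149 in untreated cells (2.57 ± 0.10, adjusted p = 4.94e-07), with a share of 0.076 ± 0.09. Ccr2 and Bst2 were the 2 of 12 tested monocyte and dendritic genes that were called, both higher, beside 8.45% of all tested genes. Both day 5 arrays of Ccr2 were far above both untreated arrays, and its call held without each array. In TEL-AML1 cells Ccr2 stood at 359 and 354 at day 5 and at 202 and 218 untreated, and the difference between the vectors' responses was 1.85 (adjusted p = 0.00121). That difference was called for 4 of 12337 genes (0.0324%), the others being Dhrs9, a retinoid dehydrogenase, Slc14a1, a urea transporter, and Slfn5, a growth regulator of the Schlafen family. With same-numbered arrays of a time point as a block, 9 genes were called, these 4 among them. Without single arrays of the empty vector 1 or 2 genes were called, and Ccr2 alone of the 4 was called without each of them. Dhrs9 and Tgm2 were the 2 of 12 tested retinoic acid genes called higher, beside 8.45% of all tested genes. Neither of these calls held without each array. With the stroma covariate Dhrs9 changed by 0.44 (adjusted p = 0.326) and Tgm2 by 0.040 (adjusted p = 0.934). Besides Ccr2, genes that did not track the stroma included Fbxo7, a subunit of a ubiquitin ligase, and Bpifc, of a lipid-binding family. Fbxo7 stood at 795 and 972 at day 5, against 218 and 211 in untreated cells (1.96 ± 0.12, adjusted p = 1.26e-05). Bpifc changed by 1.79 ± 0.18 (adjusted p = 0.000364). Between day 7 and day 5, 0 genes were called by limma (0%), with 795 at an unadjusted p under 0.05. Of 22 tested adhesion and homing genes 5 were called higher and 1 lower, beside 8.45% and 7.16% over all tested genes. Those higher included Cd81, Spn and the hyaluronan receptor Cd44 (219 and 191 at day 5, against 52.7 and 52.9 in untreated cells). Cd44 stood at 62.1 and 145 in empty-vector day 7 arrays and at 205 and 201 in untreated TEL-AML1 cells. With the stroma covariate 0 of the 22 genes were called, and Cd44 changed by 0.78 (adjusted p = 0.181). The lower gene was Icam1, a ligand of leukocyte integrins (-0.42 ± 0.077, adjusted p = 0.00854, and 0.0727 without untreated replicate 2).

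Genes of the amino acid response were lower at day 5. ATF4 is a transcription factor made when amino acids or protein folding are limiting, and its targets make and import amino acids. Of 21 tested genes of ATF4 and endoplasmic reticulum stress 10 were called lower and 0 higher (7.16% of all tested genes were called lower), with a median of -0.44. Chac1, which degrades glutathione, stood at 95.0 and 119 at day 5, against 286 and 327 in untreated cells (-1.40 ± 0.11, adjusted p = 7.44e-05). Mthfd2, a mitochondrial folate enzyme, stood at 411 and 443 against 899 and 832 in untreated cells (-0.99 ± 0.093, adjusted p = 0.000214). Psat1, of serine synthesis, stood at 837 and 767 against 1397.5 and 1289.5 in untreated cells (-0.73 ± 0.12, adjusted p = 0.00455). In all 3 both day 5 arrays lay below both untreated arrays, and all 3 calls held without each array. Asns, which makes asparagine (-0.92 ± 0.23), Slc7a5, an importer of large amino acids (-0.74 ± 0.16), Sesn2, a stress sensor (-0.59 ± 0.10), Trib3, a pseudokinase (-0.56 ± 0.091), Atf4 itself (-0.44 ± 0.091) and Herpud1, of protein degradation at the endoplasmic reticulum (-0.39 ± 0.088), were lower too, with adjusted p between 0.00581 and 0.0235. Hspa5, the main chaperone of that compartment, was not called (-0.092 ± 0.12). The summed intensity of the 21 genes was 15120.2 and 15260.2 at day 5, against 20985.1 and 20268.4 in untreated cells. The count of 10 was 6 and 9 without day 5 replicate 1 and 2, 3 and 5 without untreated replicate 1 and 2, and 2 with the stroma covariate.

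Outside that list, Gpt2, a mitochondrial transaminase, stood at 118 and 111 at day 5, against 307 and 294 in untreated cells (-1.28 ± 0.10, adjusted p = 7.44e-05), and Slc6a9, a glycine transporter, changed by -1.07 ± 0.16 (adjusted p = 0.004). The word read by ATF4 with C/EBP partners, searched as TGATGNAA on both strands of the same windows, was found for 1219 of 27025 genes (4.51%), for 276 of 9874 tested genes (2.8%), for 4 of the 9 list genes called lower that had a window (44.4%) and for 2 of the 9 not called that had one (22.2%). The windows below are those 4 genes, with the match in capitals.
Chac1 (chr2:119351024-119351081, plus strand): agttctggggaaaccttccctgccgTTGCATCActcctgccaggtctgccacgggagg
Asns (chr6:7693200-7693257, minus strand): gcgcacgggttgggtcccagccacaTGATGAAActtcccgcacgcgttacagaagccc
Trib3 (chr2:152344014-152344071, minus strand): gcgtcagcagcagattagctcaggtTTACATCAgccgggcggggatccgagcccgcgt
Herpud1 (chr8:94386292-94386349, plus strand): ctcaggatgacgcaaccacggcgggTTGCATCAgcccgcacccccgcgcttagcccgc

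Hmox1, Gclm and Mt2 were also among the falls of over 2-fold. Hmox1, which breaks down haem, stood at 235 and 214 at day 5, against 548 and 584 in untreated cells (-1.28 ± 0.25, adjusted p = 0.0117). Gclm, a subunit of the glutathione-making ligase, stood at 705 and 563 against 1293 and 1399 in untreated cells (-1.08 ± 0.15, adjusted p = 0.00272). Mt2, a metallothionein that binds zinc and copper, stood at 723 and 927 against 1985 and 2139 in untreated cells (-1.32 ± 0.19, adjusted p = 0.00339). All day 5 arrays of these genes were below the untreated arrays, and Hmox1 lost its call without day 5 replicate 2 (adjusted p = 0.059), untreated replicate 1 (0.0622) or untreated replicate 2 (0.0986).

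The lowest fold change of all was that of P2rx3, an ATP-gated channel, at 206 and 195 at day 5, against 790 and 754 in untreated cells (-1.86 ± 0.21, adjusted p = 0.000831). It was followed by Gask1b, a kinase-related secretory protein (-1.78 ± 0.30, adjusted p = 0.00631), and Cdh17, a cadherin that stood at 334 and 353 against 951 and 1061 in untreated cells (-1.51 ± 0.22, adjusted p = 0.00313). Further falls were in Pilra, an inhibitory receptor (-1.33 ± 0.32), Spsb1, an adaptor of ubiquitin ligases (-1.22 ± 0.12), Pld4, a nuclease of endolysosomes (-1.21 ± 0.12), Gsn, which cuts actin filaments (-1.13 ± 0.14), and the cytokine Il6 (-1.11 ± 0.16), with adjusted p between 0.000302 and 0.0213. In P2rx3 and Cdh17 the day 5 arrays lay close together below both untreated arrays. Gask1b lost its call without untreated replicate 2 (adjusted p = 0.0578), and Pilra without day 5 replicate 2 (0.129), untreated replicate 1 (0.0752) or untreated replicate 2 (0.154).

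**Figure D4:**
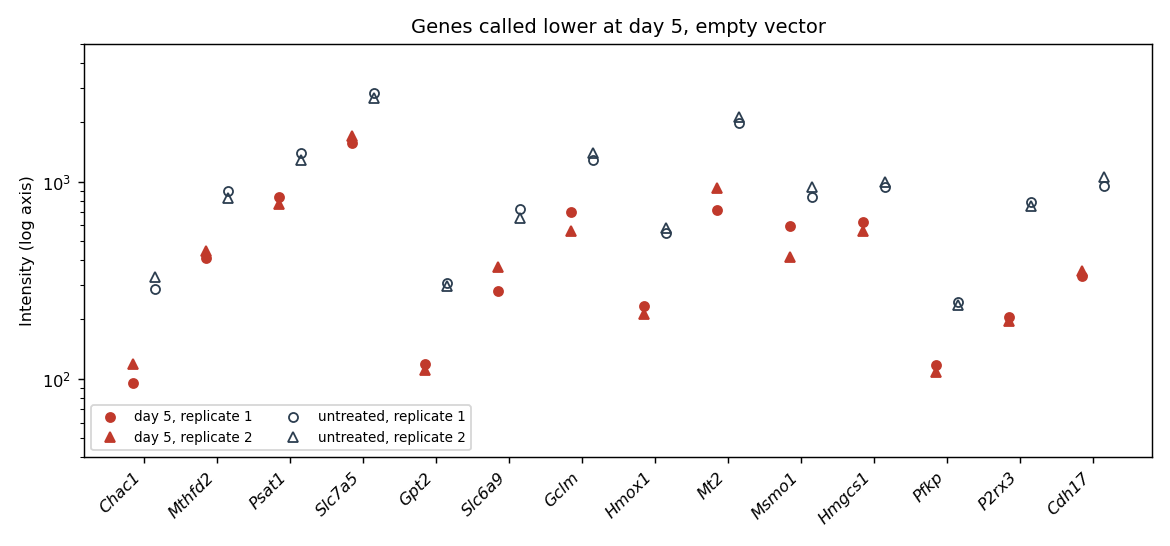
Intensity of 14 genes called lower at day 5 in each array, on a log axis. Filled red symbols are the day 5 arrays and open symbols the untreated arrays, with a circle for replicate 1 and a triangle for replicate 2. In all 14 genes both day 5 arrays lie below both untreated arrays.

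Changes of metabolic and cell cycle genes were smaller. Of 25 tested sterol and fatty acid genes 4 were called lower and 1 higher, beside 7.16% and 8.45% over all tested genes. The cholesterol-making enzymes Msmo1 (-0.81 ± 0.17, adjusted p = 0.0134), Hmgcs1 (-0.70 ± 0.17, adjusted p = 0.021), Sqle (-0.57 ± 0.13, adjusted p = 0.018) and Sc5d (-0.48 ± 0.14, adjusted p = 0.038) fell, and Scd2, a fatty acid desaturase, stood at 2831 and 3120 at day 5, against 1612 and 1744 in untreated cells (0.82 ± 0.075, adjusted p = 0.000174). Of 24 tested glycolysis and hypoxia genes 5 were called lower and 3 higher, beside the same shares. Pfkp, a phosphofructokinase, stood at 117 and 108 against 246 and 237 in untreated cells (-1.0007 ± 0.12, adjusted p = 0.00103), and of the hexokinases Hk2 was lower (-0.44 ± 0.11, adjusted p = 0.0272) and Hk1 higher (0.42 ± 0.085, adjusted p = 0.0133). Of 39 cell cycle genes 4 were called lower and 0 higher, beside 7.16% called lower over all tested genes, and the list's median was -0.23. They were Ccne1, a cyclin (-0.47 ± 0.14), Bub1, a mitotic checkpoint kinase (-0.43 ± 0.10), Cenpe, a kinetochore motor (-0.40 ± 0.10), and Rrm1, of nucleotide synthesis (-0.26 ± 0.075), with adjusted p between 0.0201 and 0.0425. Without day 5 replicate 2, untreated replicate 1 or untreated replicate 2, 0 of the 4 sterol and 0 of the 4 cell cycle genes were called, while Scd2 and Pfkp held without each array. Hk1 lost its call without any array but day 5 replicate 1 (up to 0.118), and Hk2 without any of the 4 (up to 0.143).

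Immediate early genes and targets of p53 moved in both directions. Of 27 tested immediate early genes 5 were called higher and 2 lower, beside 8.45% and 7.16% over all tested genes. Dusp1, a phosphatase of MAP kinases, stood at 517 and 638 at day 5, against 234 and 224 in untreated cells (1.27 ± 0.16, adjusted p = 0.00129). Nr4a1, an orphan nuclear receptor, stood at 318 and 612 against 50.4 and 50.8 in untreated cells (2.78 ± 0.75, adjusted p = 0.0321), and Jun changed by 1.34 ± 0.31 (adjusted p = 0.0195). Fosb was not called, at 128 and 1017 at day 5 and at 87.8 and 79.1 in untreated cells (1.95 ± 1.0, adjusted p = 0.23). The day 5 arrays of Nr4a1 and Fosb differed from each other, with replicate 2 higher in both. Of 22 tested p53 targets 4 were called higher and 3 lower, beside 8.45% and 7.16% over all tested genes. Among them were Phlda3, an inhibitor of AKT (0.99 ± 0.23, adjusted p = 0.0197), and Pmaip1, a trigger of apoptosis (-0.84 ± 0.12, adjusted p = 0.00339). Of the 4 higher targets 1 was between the limits of the stroma share and 3 were not classed. With the stroma covariate Phlda3 changed by 0.049 (adjusted p = 0.926) and Pmaip1 by -0.75 (adjusted p = 0.0972). Nr4a1 lost its call without any of the 4 arrays (adjusted p up to 0.194), Jun without any but day 5 replicate 1 (up to 0.115) and Phlda3 without any but day 5 replicate 2 (up to 0.127).

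**Figure D5:**
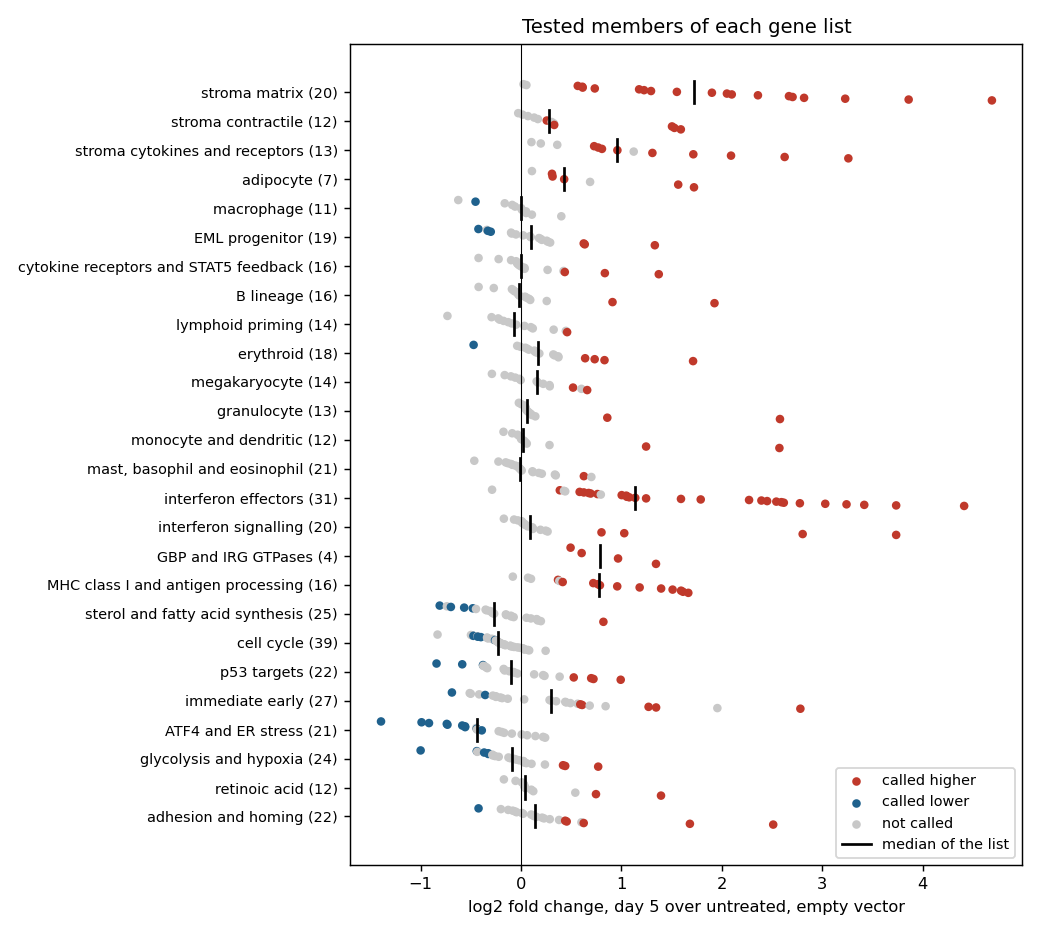
Log2 fold change of day 5 over untreated (horizontal axis) for each tested member of 26 gene lists (vertical axis, number of tested members in brackets). Red points were called higher, blue points lower and grey points were not called, and the black bar is the list's median. The stroma matrix (1.73) and interferon effector (1.14) medians lie to the right and that of ATF4 and ER stress (-0.44) to the left.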

How the data were processed

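RNA of EML1 cells was measured on 12 Affymetrix arrays, 2 for each of 6 groups, with group and replicate read from the titles. The authors deposited 1 linear intensity for each of 35556 probe sets, from 15.2 to 7932. Background correction, probe summary and normalization are not given in the sources used here, and no further scaling was applied. Arrays have no read depth, and their number and brightness limit the precision.

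In GEO's platform annotation 21218 probe sets listed 1 gene, 1881 several, and 12457 were not listed. Only the first kind was named, of which 21185 matched the GRCm38.p6 gene table. The brightest probe set stood for each of 18820 genes, and 12337 genes with a mean above the 40th percentile of probe sets (60.1) were tested. In R 4.3.3 with limma 3.58.1, a model of 6 group means was fitted to log2(intensity + 16) over all 12 arrays (6 residual and 4.22 prior degrees of freedom), so fold changes of dim genes are understated. P-values were adjusted by Benjamini-Hochberg with a threshold of 0.05. The fit was tested on simulated data. Deviations of same-numbered arrays correlated across vectors within a time point (0.433 untreated, 0.543 at day 5 and 0.377 at day 7), so these were also fitted as a block for the difference between the vectors' responses.

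The arrays, the 26 gene lists, the stroma share and the rule for genes to name were all chosen with earlier results of these data known. That rule took the 20 largest rises and the 20 largest falls among called genes with separated arrays, the 20 highest with a stroma share of 0.3 or less, up to 8 members of each list with the smallest adjusted p, all members of the B lineage, progenitor and cytokine receptor lists, and Fn1, Bgn and Col1a1; clone and predicted symbols were skipped, and the text gives a part of these. Asns, B2m, Cpa3, Fosb, Hspa5, Ifit3, Ifitm1, Ifnar1, Ifnar2, Kitl, Loxl2, Mpo, Pdgfrb, Psme2, Slc14a1 and Slfn5 were named after their values were seen. Alternatives covered normalization, filter, pseudocount, probe sets, variance model, array weights, arrays fitted, replicate blocks, single arrays left out and stroma covariates.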

Additional observations from a re-analysis of the deposited data

Results flagged for a closer look

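For 4 genes the day 5 response differed between empty-vector and TEL-AML1 cells in limma's test of the difference, and all 4 are given as values only. Ccr2 changed by 2.57 in empty-vector cells and 0.72 in TEL-AML1 cells, a difference of 1.85 (adjusted p = 0.00121). Dhrs9 changed by 0.75 in empty-vector cells and -1.35 in TEL-AML1 cells, a difference of 2.09 (adjusted p = 0.0114), and stood at 135 and 163 in TEL-AML1 cells at day 5, against 401 and 403 untreated. Without single empty-vector arrays the adjusted p reached 0.0194 for Ccr2 and 0.119 for Dhrs9. Slc14a1 changed by 0.25 in empty-vector cells and 1.22 in TEL-AML1 cells, a difference of -0.97 (adjusted p = 0.0266). Slfn5 changed by 1.37 in empty-vector cells and 2.16 in TEL-AML1 cells, a difference of -0.78 (adjusted p = 0.0284). Without single empty-vector arrays the adjusted p reached 0.195 for Slc14a1 and 0.261 for Slfn5. In each gene both replicates of a group lay on the same side of the other group of that vector. At an unadjusted p under 0.05 the difference was found for 948 genes.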

How the results depend on the processing

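With 2 arrays in each group, leaving out 1 array moved the count of calls to between 202 and 1488 in all, 139 and 722 higher and 63 and 944 lower. The count fell to 348 (160 higher, 188 lower) with the stroma covariate and to 159 (94 higher, 65 lower) with a covariate from Fn1, Bgn and Col1a1, which separates treated from untreated arrays and so widens the error of the day 5 change. Testing only brighter genes, above the 60th percentile, gave 692 higher. A replicate block within each vector gave 534 lower and 1312 in all, and a block over all arrays 1868. Deviations of empty-vector untreated and day 5 arrays with the same number correlated at -0.213, so equal numbers did not pair these groups. Crossing the numbers, chosen after seeing the data, gave 1853 calls (998 higher, 855 lower). Over the remaining settings, among them a fit of the 4 compared arrays alone (1736) and one without the day 7 arrays, added after seeing the data (2363), counts of calls stayed within 1.5 times of 1926. With a stroma index from Fn1, Bgn and Col1a1 or from empty-vector pairs alone, 123 or 122 genes tracked the stroma and 267 or 276 did not.

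The count of 4 genes whose response differed between the vectors was 1 to 2 without single arrays, 1 with a block within each vector, 2 with crossed numbers, 7 with array weights, 8 with either stroma covariate, 16 without the day 7 arrays and 9 with same-numbered arrays of a time point as a replicate block, added after seeing the data.

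Among the called genes named here, changes turned negative with the stroma covariate, and with that from Fn1, Bgn and Col1a1, in Col1a1 (-0.14 and -0.37), Cxcl12 (-0.12 and -0.46), Kitl (-0.10 and -0.11), Acta2 (-0.43 and -0.50), Cald1 (-0.10 and -0.20), Pparg (-0.12 and -0.20), Lpl (-0.44 and -0.58), Ebf1 (-0.22 and -0.36), Lcn2 (-0.37 and -0.62) and Gbp3 (-0.016 and -0.038), and with the second alone in Nr4a1 (-0.18), Tgm2 (-0.015) and Hp (-0.0023). None of these called genes changed direction under the other settings run, while uncalled genes near 0 did. Dim genes are limited by the arrays' background, since fold changes near it are understated.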
